A study of Mus musculus with 4 samples.

Results

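The neuregulin ligand genes Nrg1, Nrg2, Nrg3 and Nrg4 and the receptor genes Erbb2, Erbb3 and Erbb4 were followed through single-nucleus RNA libraries of mouse hippocampus. They are 7 of the 32285 features counted and were taken by their symbols. The set was chosen by values of these same libraries, in which Erbb4 had marked inhibitory nuclei and Erbb4 and Nrg1 had shown differences with training that did not pass in pyramidal classes. Levels across cell classes are therefore descriptions, with no test, and the tests of training below are not independent of the choice. Of 260589 deposited barcodes, the 47110 with at least 600 UMIs (unique molecular identifiers, 1 for each counted RNA molecule) were used. A marker gate placed 13182 of them, or 28.0%, in a cell class.

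The 4 libraries came from mice of the genotype ArcCreERT2::eYFPflx, in which a Cre recombinase driven by the activity gene Arc and switched on by tamoxifen can mark neurons permanently with eYFP. Libraries Trained 1 and Trained 2 were from mice trained in active place avoidance, a task on a rotating platform with a sector to be avoided, entry to which brings a shock, and Untrained 1 and Untrained 2 were from untrained mice. The hippocampus was collected 3 days past the retention test, without recall in between, and the comparison asks what differs while a memory is kept. The labels give no age, marked nuclei were not separated here, and a library is treated as 1 mouse. With n = 2 in each group, every p-value measures the spread between these 4 samples only.

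Neuregulins carry an EGF-like domain, and many are made as membrane-bound precursors that proteases such as BACE1 and ADAM enzymes cut free. ErbB3 and ErbB4 bind them, while ErbB2 binds no neuregulin by itself and acts as the partner kinase in receptor pairs. In the hippocampus ErbB4 is best known from GABAergic interneurons, where it takes part in forming excitatory synapses onto them, and excitatory neurons are a source of NRG1 and NRG3.

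The libraries differed in depth. Trained 1, Trained 2, Untrained 1 and Untrained 2 kept 6019, 12206, 16916 and 11969 barcodes with medians of 736, 887, 957.5 and 1079 UMIs. The labelled tissue was represented by dentate granule, CA1 and CA3 classes, beside a thalamic and a small cortical excitatory class. In the 8 classes tested the class's own markers were 4.44 to 13.1 times as high as in the other barcodes of the same library. The gate selected barcodes by these same markers, so this enrichment follows from the gate and is no independent check of the classes. A further 3799 barcodes lay just under the gate's margin and 5233 just inside it. No doublet caller was run, and the gate can admit barcodes that also hold markers of another class. In the 4 libraries 60, 121, 139 and 104 barcodes had a sequence that also occurred in another library. Barcodes of 250 to 350 UMIs, called low-UMI barcodes, were summed as a profile of RNA outside well-filled droplets. They can hold RNA of nuclei as well. They were 14018 of 73013 deposited barcodes in Trained 1, 11426 of 65863 in Trained 2, 34709 of 79810 in Untrained 1 and 22140 of 41903 in Untrained 2. The lowest deposited barcodes of these libraries held 101, 174, 201 and 251 UMIs, so the range was an unequal part of each library.

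Nrg3 was the most abundant of the 7 transcripts. Over all barcodes it reached 4335 and 4421 CPM (UMIs of the gene scaled to a common total of UMIs) in Trained 1 and 2 and 3947 and 4093 CPM in Untrained 1 and 2. Because introns are counted in nuclei, a long gene collects more reads, and levels of different genes were compared per 100 kb of gene span. On that scale Nrg3 stood at 380 ± 19.7 CPM per 100 kb (SD, n = 4), against 90.7 ± 19.4 for Nrg1, 78.7 ± 5.42 for Nrg2, 53.6 ± 3.81 for Erbb4, 16.0 ± 3.34 for Erbb3, 4.04 ± 2.43 for Nrg4 and 0.931 ± 0.461 for Erbb2. Nrg3, Nrg1 and Erbb4 have nearly equal spans, of 1104, 1069 and 1076 kb, so their order is the same by CPM alone. Every Nrg3 library lay above every library of each other member on this scale.

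Nrg3, a ligand made mostly by neurons, was detected in most barcodes of each neuronal class. In thalamic excitatory barcodes it stood at 5277, 5929, 5739 and 6037 CPM (in the order Trained 1, Trained 2, Untrained 1, Untrained 2, which all lists below follow) and in CA3 pyramidal barcodes at 5172, 5480, 5090 and 5493 CPM. These 2 classes overlapped each other and lay above all other tested classes in every library. CA1 pyramidal barcodes held 4380, 4205, 4046 and 4370 CPM and dentate granule barcodes 3910, 4327, 3719 and 3973 CPM. CA3 exceeded CA1 by 1.18 to 1.30 times and the dentate granule class by 1.27 to 1.38 times within a library. Inhibitory barcodes followed at 3683 ± 131 CPM and oligodendrocyte precursors at 3609 ± 277 (SD, n = 4). Oligodendrocytes and astrocytes had the lowest means, 2782 ± 533 and 2699 ± 534 CPM.

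The share of barcodes with a Nrg3 UMI was higher in thalamic neurons than in each of the 3 glial classes in all 4 libraries. After thinning every barcode to 600 UMIs, 94.6% to 96.3% of thalamic barcodes held at least 1 Nrg3 UMI (97.5% to 98.7% unthinned). In astrocytes the thinned share was 87.8% in Trained 1 and 71.0% in Trained 2, against 53.5% in Untrained 1 and 52.2% in Untrained 2 (92.9%, 76.5%, 60.0% and 60.3% unthinned). Neurons and glia did not separate throughout, since in Trained 1 the thinned share was 90.7% in oligodendrocyte precursors against 89.3% in dentate granule and 88.0% in inhibitory barcodes. The low-UMI barcodes carried Nrg3 at 2230, 890, 694 and 848 CPM, highest in Trained 1. How much of the glial Nrg3 is such RNA was not tested.

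Nrg1, the best studied neuregulin, was lowest in CA3. It stood there at 266, 153, 448 and 218 CPM, against 774, 676, 626 and 641 CPM in CA1 and 587, 666, 478 and 675 CPM in dentate granule barcodes. CA3 lay below both other hippocampal excitatory classes in all 4 libraries, by 1.40 to 4.40 times against CA1 and by 1.07 to 4.34 times against dentate granule barcodes. The other tested classes overlapped in a chain, from inhibitory barcodes at 688 ± 140 CPM through thalamic neurons (733 ± 72.9), astrocytes (749 ± 102) and oligodendrocytes (854 ± 216) to oligodendrocyte precursors at 1147 ± 296 CPM (SD, n = 4). No neighbours in that order were apart beyond their spread, other than dentate granule and CA3.

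The cortical excitatory class, too small for a test with 12, 25, 137 and 62 barcodes, held Nrg1 at 560, 2140, 3140 and 2340 CPM. Only the 12 barcodes of Trained 1 did not stand above every hippocampal excitatory class. They lay above CA3 and below CA1 and dentate granule barcodes. Unassigned barcodes held 754, 1042, 1421 and 1149 CPM and 79.6% of all Nrg1 UMIs, so most Nrg1 in these libraries came from barcodes that the gate did not name. They were 33928 of the 47110 barcodes and also held 70.3% of all Nrg3 UMIs, so a majority there is not particular to Nrg1.

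**Figure D1:**
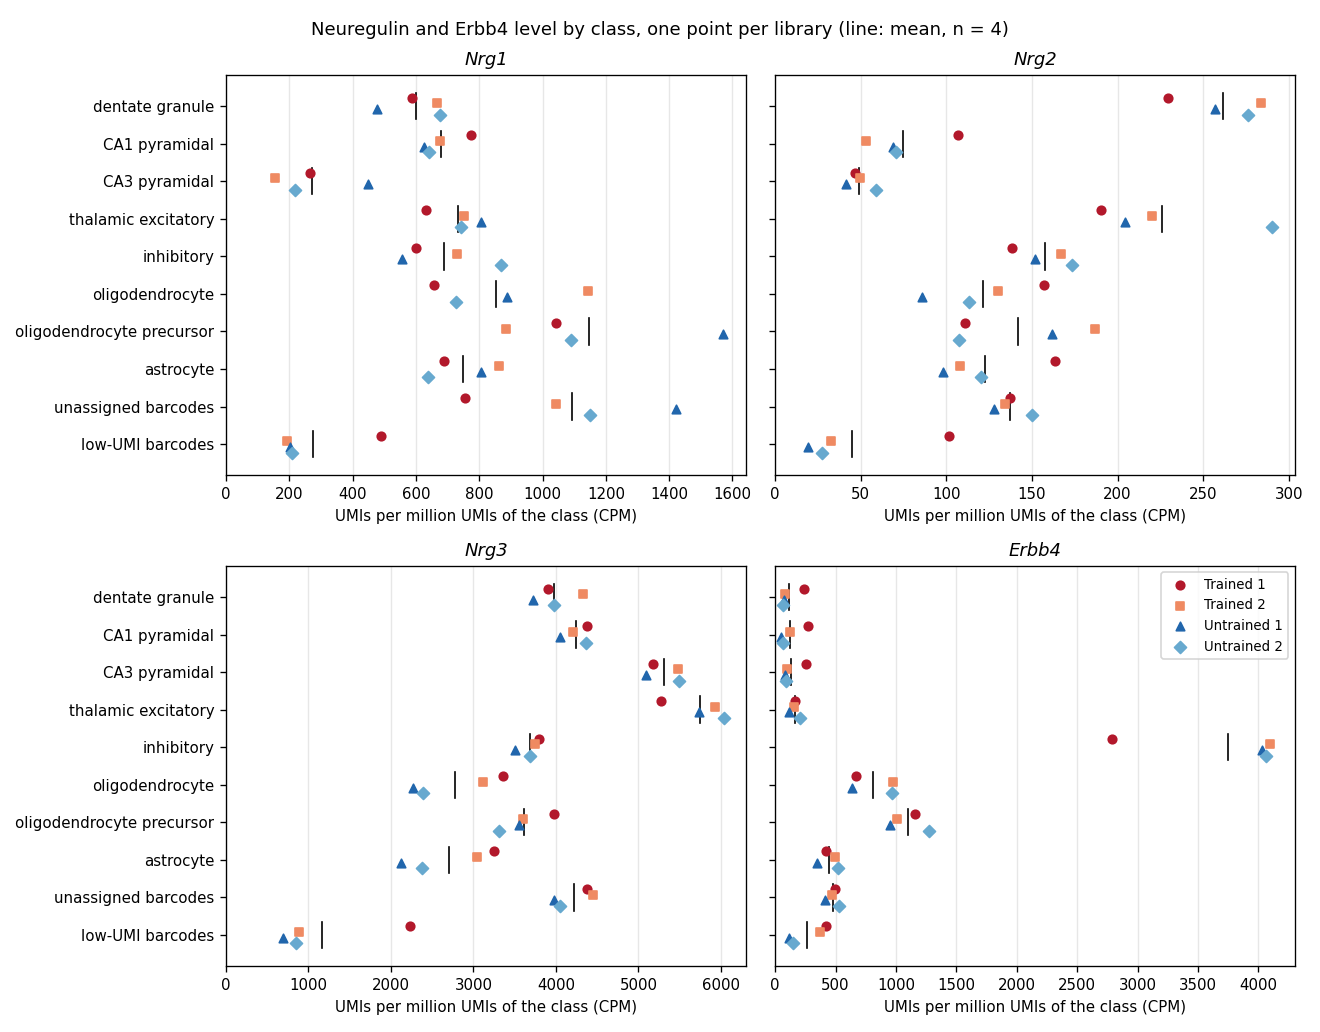
Level of Nrg1, Nrg2, Nrg3 and Erbb4 (horizontal axes, CPM) in 8 tested classes, unassigned barcodes and low-UMI barcodes (vertical axis). Each point is 1 library and the line is the mean of 4. Erbb4 stands apart in inhibitory barcodes. Among the 8 classes, Nrg1 is lowest in CA3 and Nrg2 is lowest in CA1 and CA3.

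The balance of the 2 long ligand transcripts therefore differed between CA3 and its neighbours. Nrg1 made up 4.88%, 2.72%, 8.08% and 3.82% of the Nrg1 plus Nrg3 UMIs in CA3. In CA1 the shares were 15.0%, 13.8%, 13.4% and 12.8%, and in dentate granule barcodes 13.1%, 13.3%, 11.4% and 14.5%. The highest CA3 share lay below the lowest of either other class. With each barcode placed by its whole profile in place of the marker gate (an alternative described with the training results), Nrg1 was again lowest in CA3 among the tested classes in each library, and Erbb4 at 3055 to 3749 CPM in inhibitory barcodes stood above every other tested class. Other positions changed: Nrg3 in oligodendrocyte precursors, at 4588, 4415, 4310 and 4717 CPM, then lay above CA1, dentate granule and inhibitory barcodes in all 4 libraries, and Erbb4 in oligodendrocytes exceeded precursors in Trained 2 (1025 against 741 CPM) and Untrained 2 (1028 against 846 CPM). The glial classes and unassigned barcodes had larger mean shares, 23.7% in oligodendrocytes, 24.0% in their precursors, 22.1% in astrocytes and 20.5% in unassigned barcodes.

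**Figure D2:**
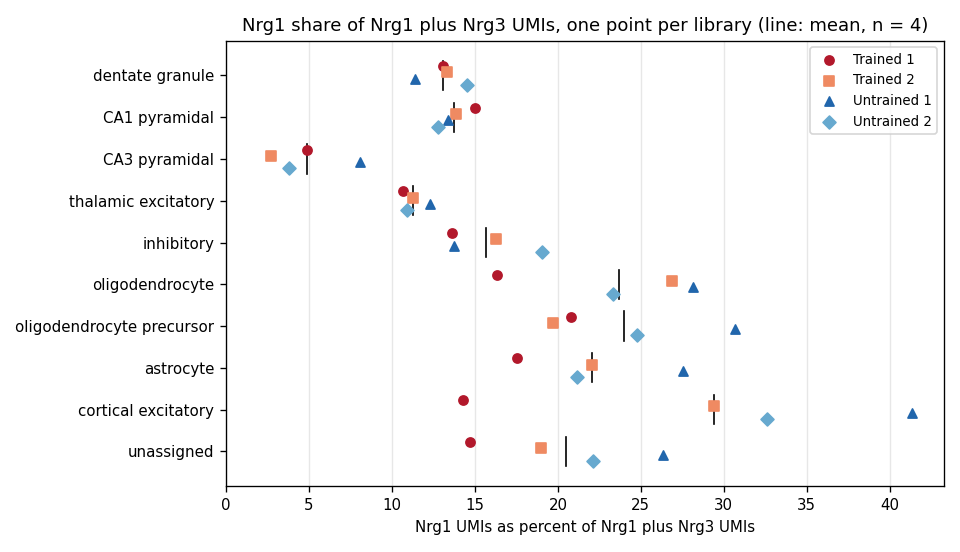
Nrg1 UMIs as a percent of Nrg1 plus Nrg3 UMIs (horizontal axis) in 10 groups of barcodes (vertical axis). Each point is 1 library and the line is the mean of 4. CA3 lies at 2.72% to 8.08%, below every CA1 and dentate granule library.

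Nrg2, a close relative of Nrg1, was highest in dentate granule and thalamic neurons. Dentate granule barcodes held 230, 284, 257 and 276 CPM and thalamic barcodes 190, 220, 204 and 290 CPM, which overlapped. CA1 held 107, 53.3, 68.8 and 70.6 CPM and CA3 46.5, 49.5, 41.4 and 58.7 CPM, also overlapping each other. Dentate granule barcodes exceeded CA3 by 4.71 to 6.20 times and CA1 by 2.15 to 5.33 times within a library. They held 32.2% of the Nrg2 UMIs of assigned barcodes, from 18.3% of all assigned UMIs. Inhibitory barcodes, at 158 ± 15.8 CPM, and the 3 glial classes, at 122 to 142 CPM, lay between (means, n = 4).

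Nrg4, a ligand best known outside the brain, was close to the limit of detection. It gave 27, 85, 69 and 14 UMIs over all barcodes, or 5.63, 6.90, 3.75 and 0.948 CPM. In no tested class did a library hold more than 9 of its UMIs, and 22, 62, 53 and 8 were in unassigned barcodes. No class can be named as its source at this depth.

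Erbb4 was the only ErbB receptor transcript measured at depth, and it was highest in inhibitory neurons. They stood at 2789, 4100, 4029 and 4065 CPM. Next came oligodendrocyte precursors at 1155, 1012, 950 and 1273 CPM and oligodendrocytes at 666, 979, 634 and 969 CPM, which overlapped. In Trained 1, a single one of the 54 precursor barcodes held 22 of their 52 Erbb4 UMIs. The highest precursor barcode held 14 of 103 in Trained 2 and 12 of 229 in Untrained 1. Precursor levels without these barcodes were not computed. Astrocytes held 421, 496, 349 and 525 CPM. The lowest inhibitory library thus lay above the highest library of every other tested class, by 2.41 to 4.24 times over precursors within a library and 4.19 to 6.36 times over oligodendrocytes. Of the Erbb4 UMIs in assigned barcodes, 72.0% were in inhibitory barcodes, which held 15.0% of the assigned UMIs. Of all Erbb4 UMIs, 31.0% were in inhibitory and 57.0% in unassigned barcodes, which were 33928 of the 47110. Erbb4 was not among the genes of the gate.

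The 4 excitatory classes were lowest in Erbb4 and could not be told apart by it. Thalamic neurons held 165, 159, 119 and 207 CPM, dentate granule barcodes 236, 82.0, 74.7 and 63.9, CA1 barcodes 272, 123, 44.9 and 64.6, and CA3 barcodes 259, 101, 79.6 and 91.4 CPM. In each of the 3 hippocampal classes Trained 1 was the highest library. All 3 lay below the low-UMI barcodes of the same library, which held 421, 369, 114 and 146 CPM.

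Of the inhibitory barcodes thinned to 600 UMIs, 60.8%, 67.3%, 68.8% and 66.1% held an Erbb4 UMI (66.4%, 72.6%, 77.7% and 71.9% unthinned, at medians of 717 to 1219 UMIs). In CA1, a class in which little Erbb4 is known, the thinned shares were 12.2%, 4.37%, 2.85% and 3.11% (12.8%, 7.90%, 5.17% and 6.02% unthinned, at medians of 760.5 to 1243 UMIs). The exact 95% binomial (Clopper-Pearson) intervals of the inhibitory shares spanned 54.0% to 72.1% and those of the CA1 shares 1.64% to 18.5%. They cover counting error only, as does every interval and limit given here. The inhibitory shares were far above the CA1 shares in all 4 libraries.

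Within inhibitory barcodes, Erbb4 was higher in those with markers of interneurons from the medial ganglionic eminence (MGE; Sox6, Lhx6, Satb1, Sst, Pvalb and others) than in those with markers of the caudal ganglionic eminence (CGE; Adarb2, Npas1, Vip, Cck, Lamp5 and others). The 946 MGE-type barcodes held 4483, 4983, 4412 and 5520 CPM. The 815 CGE-type barcodes held 1781, 3274, 3635 and 2510 CPM, and 318 barcodes fitted neither. MGE-type barcodes were higher in 4 of 4 libraries, by 1.21 to 2.52 times, and the lowest of them lay above the highest CGE-type value. The share of thinned barcodes with an Erbb4 UMI did not follow everywhere, since Untrained 1 had 66.5% in MGE-type and 72.2% in CGE-type barcodes. Nrg1 went the other way, lower in MGE-type barcodes in all 4 libraries at 574 ± 121 against 710 ± 99.99 CPM (SD, n = 4), and Nrg3 differed by at most 1.19 times.

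**Figure D3:**
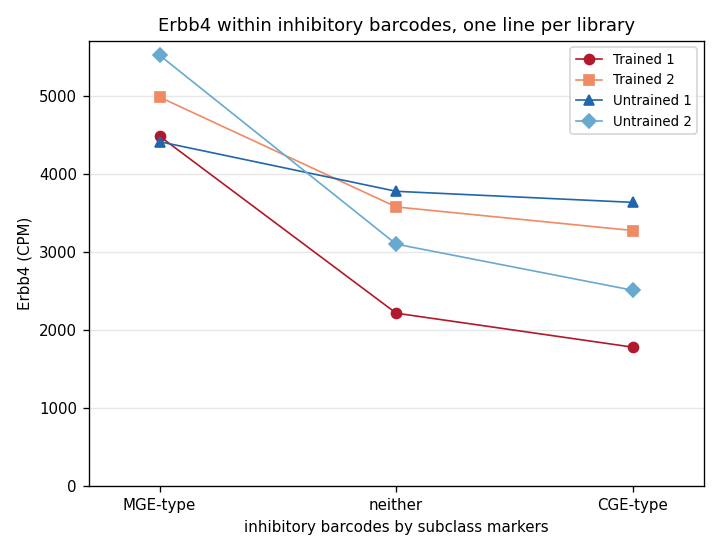
Erbb4 level (vertical axis, CPM) in inhibitory barcodes with MGE-type markers, with neither set and with CGE-type markers (horizontal axis). Each line is 1 library. All 4 lines fall from MGE-type (4412 to 5520 CPM) to CGE-type (1781 to 3635 CPM).

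Erbb3, whose protein binds neuregulin but has little kinase activity of its own, was highest in oligodendrocytes among the tested classes. They held 5, 8, 10 and 9 UMIs, or 46.2, 26.7, 23.2 and 22.7 CPM, and 46.4% of all Erbb3 UMIs in assigned barcodes. Of all Erbb3 UMIs, 18.9% were in oligodendrocytes and 59.2% in unassigned barcodes, which were 33928 of the 47110. Other tested classes held at most 4 UMIs in any library, and over all barcodes there were 22, 35, 63 and 49. The oligodendrocyte value was higher than that of unassigned barcodes (1.97 to 4.31 CPM) in every library. Erbb2, the partner kinase, gave 1, 2, 3 and 6 UMIs over all barcodes and none in a named class. In inhibitory barcodes the limit that a count of 0 allows (3 counts) was 17.3, 4.97, 3.53 and 4.69 CPM, so Erbb2 was not detectable there at this depth.

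The genes most like each member over the 32 class-by-library sums were found by Pearson's r of log2(CPM + 10), among 4080 genes with a mean of at least 50 CPM and with the markers of the gate left out. The points of a library share its depth, and those of a class its cells, so r is a description. For Erbb4 they were Sox2ot (r = 0.94), Kcnip1 (0.89), a potassium channel subunit gene, and the predicted genes Gm38505 (0.88) and Gm45321 (0.86). For Nrg3 they were Macrod2 (0.96), Rbfox1 (0.92), a splicing regulator of neurons, Fam155a (0.90) and Rtl4 (0.90). Nrg1 had less close matches in Brinp3 (0.81), Lrrc4c (0.78) and Pcgf5 (0.74).

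With training, 1 of 32 tests of a member in a class passed the threshold, Erbb4 in CA1 pyramidal barcodes. The 32 tests are those of Nrg1, Nrg2, Nrg3 and Erbb4 in 8 classes, since Nrg4, Erbb2 and Erbb3 passed the filter on low counts in none. Each used edgeR's quasi-likelihood test on counts summed per class and library, with Benjamini-Hochberg adjustment over all genes of the class at 0.05. Few genes of any kind passed: 0.0207% of dentate granule genes, 0.0249% of CA1, 0.0244% of CA3, 0.0124% of thalamic, 0.0222% of inhibitory and 0.0152% of astrocyte genes, and 0% of the 6820 genes in oligodendrocytes and of the 3099 in their precursors. In the last 2 classes 588 and 243 genes had an unadjusted p under 0.05, and DESeq2 passed 0 in each.

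Erbb4 in CA1 rose by 1.60 on the log2 scale (SE 0.30, edgeR adjusted p = 0.0164). The libraries behind it were those given above, 272 and 123 CPM in the trained and 44.9 and 64.6 CPM in the untrained libraries, from 33, 60, 32 and 43 UMIs. Both trained libraries lay above both untrained ones, and 16% of all genes tested in CA1 showed that same separation. In the barcode highest in Erbb4 there were 10, 10, 2 and 10 UMIs, and without that barcode the levels were 192, 103, 42.2 and 49.7 CPM. The call rested on Trained 1 and Untrained 1, as the change was 1.20 without Trained 1 (adjusted p = 0.54) and 1.36 without Untrained 1 (adjusted p = 0.25) in the same edgeR test. A stricter marker gate left 0.84 (adjusted p = 1.0), thinning to 600 UMIs 1.35 (adjusted p = 0.34), barcodes of 600 to 1000 UMIs 1.24 (adjusted p = 0.54) and DESeq2 1.75 (adjusted p = 0.49), all upward and none past the threshold. Each barcode was also placed, as an alternative added after the values were seen, by the likelihood of its whole profile without the 7 members, which gave 75.9% of barcodes a class. CA1 barcodes set in that way, 864, 2925, 2851 and 2721 of them, held 202, 140, 104 and 108 CPM of Erbb4. Both trained libraries again lay above both untrained ones, but the share of all genes so separated in this set was not computed. The difference was 0.64 (SE 0.18, adjusted p = 1.0), against 1.60 with the marker gate.

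Other measures were set beside this result, and not all of them followed training. The 8 inhibitory markers, of which 7, 8, 8 and 8 were detected, summed to 930, 469, 476 and 622 CPM in CA1 barcodes, highest in Trained 1, against 12124 to 14577 CPM in inhibitory barcodes. In CA1 barcodes with no UMI of these markers, a group formed after the values were seen, Erbb4 stood at 139, 95.4, 53.6 and 61.9 CPM. These came from 9, 30, 21 and 19 UMIs, with both trained libraries above both untrained ones. The share of all genes so separated in that group was not computed. Low-UMI barcodes held Erbb4 at 421 and 369 against 114 and 146 CPM, a log2 difference of 1.53 (SE 0.24, adjusted p = 0.0192), in a profile where 4.26% of genes passed the same edgeR test. That value kept its direction without Untrained 1 (1.40, adjusted p = 0.19) or Untrained 2 (1.68, adjusted p = 0.0529) but lost its call. CA1 barcodes held 0.645, 0.333, 0.395 and 0.441 times the low-UMI level. The low-UMI range took in a larger part of the deposited barcodes in both untrained libraries. How far this entered the low-UMI difference was not tested. The part of free RNA and of inhibitory RNA in the CA1 difference was not tested.

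The other hippocampal excitatory classes moved the same way without passing. Erbb4 differed by 0.82 (SE 0.29, adjusted p = 0.77) in dentate granule and by 0.80 (SE 0.29, adjusted p = 1.0) in CA3 barcodes by edgeR's test. Both trained libraries lay above both untrained ones in each, as did 16.5% of genes in dentate granule and 15% in CA3 barcodes. Trained 1 carried most of it, since without that library the differences were 0.29 and 0.24. Without the barcode highest in Erbb4, dentate granule barcodes held 217, 70.4, 67.8 and 60.8 CPM. CA3 barcodes then held 241, 81.2, 64.7 and 80.7 CPM. With no inhibitory marker UMI, dentate granule barcodes held 248, 49.4, 48.8 and 47.6 CPM from 13, 7, 11 and 8 UMIs. CA3 barcodes of that kind held 204, 57.5, 36.7 and 46.6 CPM from 12, 13, 7 and 6 UMIs. With the replicate number as a block the dentate granule difference passed (0.95, adjusted p = 0.0438), as 1 of 26 genes of 9674. Without Trained 2, which leaves 1 trained library, the CA3 difference was 1.51. With whole-profile classes the differences were 0.82 (SE 0.20, adjusted p = 0.24) and 0.73 (SE 0.23, adjusted p = 1.0), without overlap in either class. For how many of all genes the libraries were so separated in whole-profile classes was not computed.

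**Figure D4:**
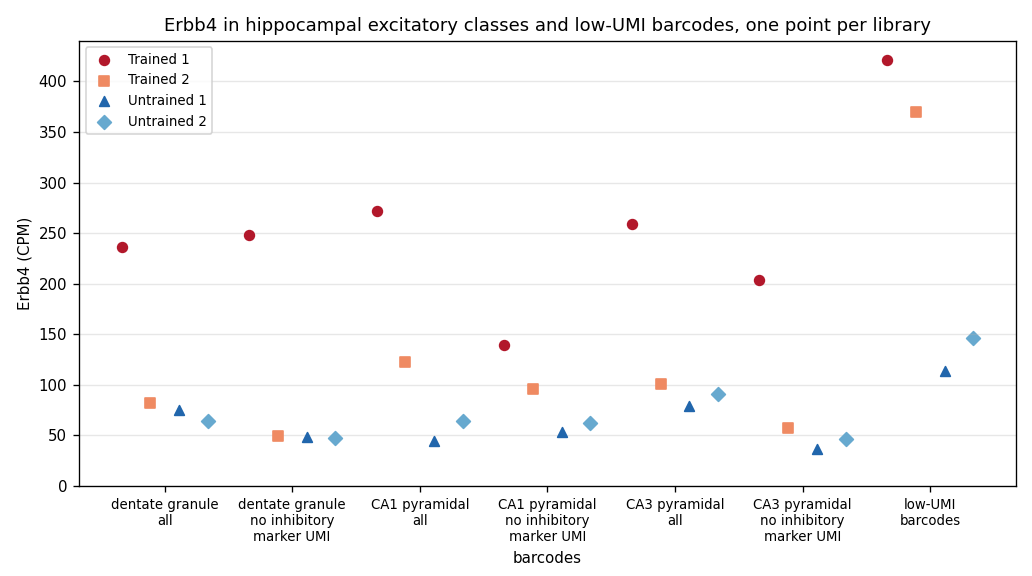
Erbb4 level (vertical axis, CPM) in dentate granule, CA1 and CA3 barcodes, in those of them with no inhibitory marker UMI, and in low-UMI barcodes (horizontal axis). Each point is 1 library. Trained 1 is the highest in each class, and both trained libraries are above both untrained ones in the low-UMI barcodes.

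In inhibitory neurons, where the receptor is abundant, no difference in Erbb4 passed. The log2 value was -0.21 (SE 0.21, adjusted p = 1.0 by edgeR), with 3 libraries between 4029 and 4100 CPM and Trained 1 at 2789. The values were -0.01 (SE 0.29) in thalamic neurons, 0.10 (SE 0.26) in oligodendrocytes, -0.05 (SE 0.21) in their precursors and 0.13 (SE 0.26) in astrocytes, and the groups of libraries overlapped in these 5 classes.

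Whether training changed Erbb4 differently between classes was tested as an interaction, with the library as a block. Among the 6 pairs of dentate granule, CA1, CA3 and inhibitory barcodes no member passed, and the lowest adjusted p for Erbb4 was 0.18, for CA1 against inhibitory. Of all genes, edgeR passed 0.0101% for dentate granule against CA1, 0.0104% for dentate granule against CA3 and 0% for the other 4 pairs. When all 28 pairs of the 8 classes were fitted, which was added after the values were seen, the Erbb4 change in CA1 was larger than in oligodendrocytes, in their precursors and in astrocytes. The difference was -1.39 (SE 0.30, adjusted p = 0.0168) for oligodendrocytes minus CA1, -1.63 (SE 0.31, adjusted p = 0.0223) for precursors minus CA1 and -1.40 (SE 0.30, adjusted p = 0.0127) for astrocytes minus CA1, where edgeR passed 0.0238%, 0.0595% and 0.0681% of genes. All 3 kept their sign and lost the call without Trained 1 (adjusted p = 0.75, 0.18 and 0.53) and without Untrained 2 (0.23, 1.0 and 0.40), and those against oligodendrocytes and astrocytes also without Untrained 1 (0.16 and 0.60). With whole-profile classes the values were -0.27 (adjusted p = 1.0) for oligodendrocytes, -0.28 (adjusted p = 1.0) for precursors and -0.85 (adjusted p = 0.0456) for astrocytes minus CA1. Without Trained 2, which leaves Trained 1 as the only trained library, the difference was -2.72 for inhibitory minus CA1 and -2.25 for thalamic minus CA1. Such a fit holds no spread between trained libraries.

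**Figure D5:**
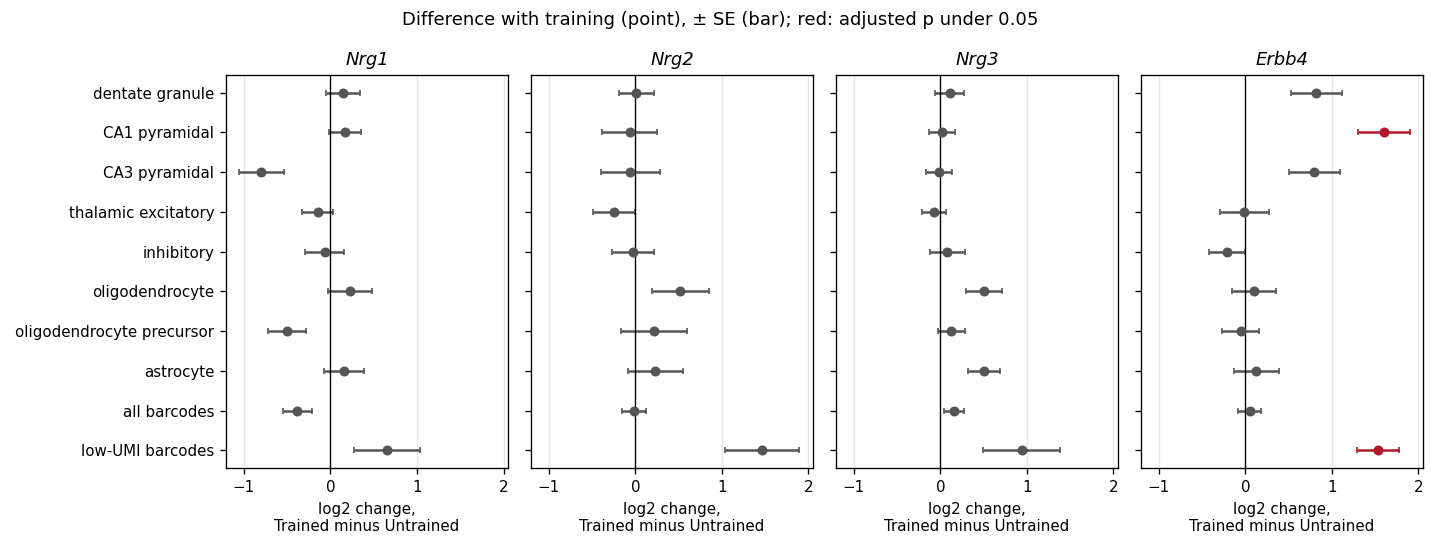
Log2 difference of trained minus untrained (horizontal axes) for Nrg1, Nrg2, Nrg3 and Erbb4 in 8 classes, in all barcodes and in low-UMI barcodes (vertical axis). Points are edgeR estimates, bars 1 SE, and red marks an adjusted p under 0.05. Erbb4 is marked in CA1 and in low-UMI barcodes.

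No difference in Nrg3 passed in neurons. Its largest absolute log2 value in the 5 neuronal classes was 0.11, in dentate granule barcodes (SE 0.17), and its values in CA1 and CA3 were 0.02 (SE 0.15) and -0.01 (SE 0.15). In glia it was higher in the trained libraries without passing: 3251 and 3043 against 2121 and 2382 CPM in astrocytes (log2 0.51, SE 0.18, adjusted p = 0.47 by edgeR) and 3357 and 3111 against 2270 and 2391 CPM in oligodendrocytes (log2 0.50, SE 0.21, adjusted p = 0.52). Without Untrained 2 the oligodendrocyte value passed, at 0.53 (adjusted p = 0.0411), in a fit where 391 of 7181 genes passed. The groups did not overlap in either class, which held for 20.9% and 20.2% of all genes in this direction. Markers of dentate granule, CA1 and CA3 neurons summed to 3847, 3408, 2879 and 3515 CPM in astrocytes and 3468, 3355, 2447 and 3675 CPM in oligodendrocytes, lowest in Untrained 1, and their part was not tested. In astrocyte barcodes of 600 to 1000 UMIs, a depth range added after the values were seen, Nrg3 passed at 1.38 (adjusted p = 8.19e-04), as did Nrg1 at 1.03 (adjusted p = 0.0306), among 249 of 3770 genes called there.

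Nrg1 had its largest difference in CA3, where it was lower in the trained libraries. The levels were 266 and 153 against 448 and 218 CPM, which overlap, and the log2 value was -0.80 (SE 0.26, unadjusted p = 0.0030, adjusted p = 1.0 by edgeR). The difference of training effects was -0.97 for CA3 minus CA1 (SE 0.22, adjusted p = 0.0659) and -0.99 for CA3 minus dentate granule barcodes (SE 0.25, adjusted p = 0.32). With a library left out, which leaves a lone library in 1 group, the value against CA1 was -1.16 without Trained 1. Against dentate granule barcodes it was -1.28 without Trained 1 and -1.65 without Untrained 2. With each library left out in turn the values ran from -1.46 to -0.39 against CA1. They ran from -1.65 to -0.15 against dentate granule barcodes. The CA3 value itself was -1.22 without Untrained 2 and -0.23 without Untrained 1. The direction depended on how the class was drawn: in the 827, 1631, 757 and 634 CA3 barcodes of the whole-profile assignment Nrg1 stood at 302, 274, 287 and 210 CPM, a difference of 0.18 (SE 0.18, adjusted p = 1.0), and the differences of training effects shrank to -0.15 for CA3 minus CA1 and -0.0078 for CA3 minus dentate granule barcodes. In oligodendrocyte precursors Nrg1 stood at 1044 and 884 against 1572 and 1089 CPM (log2 -0.51, SE 0.22, adjusted p = 0.61), with no overlap, as for 19.2% of genes in this direction.

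Nrg2 did not pass in any class. Its log2 values ran from -0.25 (SE 0.24) in thalamic neurons to 0.52 (SE 0.33) in oligodendrocytes, and its value in dentate granule barcodes, where it was highest, was 0.01 (SE 0.20). Over the 32 tests, 7 had an unadjusted p under 0.05: Erbb4 in dentate granule, CA1 and CA3 barcodes, Nrg1 in CA3 and oligodendrocyte precursors, and Nrg3 in oligodendrocytes and astrocytes. The share of all genes at that level was 6.27% in dentate granule barcodes, 4.22% in CA1, 2.95% in CA3, 3.35% in thalamic, 4.99% in inhibitory, 8.62% in oligodendrocyte, 7.84% in precursor and 9.79% in astrocyte barcodes. In 9 tests both trained libraries were above both untrained ones and in 1 below, while 22 overlapped. All genes were separated upward in 15% (CA3) to 20.9% (astrocyte) of tests in a class and downward in 14.8% (CA3) to 21.3% (astrocyte), with 17.6% downward in CA1 and in inhibitory and 19.9% upward in precursor barcodes.

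When all barcodes were summed without regard to class, 6 members were tested, none passed, and edgeR passed 0% of 17455 genes (1094 or 6.27% had an unadjusted p under 0.05, and DESeq2 passed 6). Nrg1 stood at 722 and 937 in trained against 1227 and 994 CPM in untrained libraries (log2 -0.38, SE 0.17, adjusted p = 0.79). Nrg4 was at 5.63 and 6.90 against 3.75 and 0.948 CPM (log2 1.44, SE 0.50, adjusted p = 0.79), with Untrained 2 lowest at 14 UMIs. Without the filter on low counts its adjusted p by edgeR was 0.00229, as 1 of 159 genes called of 26014. Fewer cells of a class and less RNA per cell cannot be told apart in such sums, and the classes were present in unequal shares.

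The low-UMI barcodes had the largest share of genes past the threshold, and 31.6% of their genes were separated upward and 30.5% downward. Besides Erbb4, Nrg2 stood there at 101, 32.5, 19.2 and 27.4 CPM (log2 1.47, SE 0.43, adjusted p = 0.0811 by edgeR) and Nrg1 at 491, 193, 203 and 209 CPM (log2 0.65, SE 0.38, adjusted p = 0.28). Trained 1 was the highest library for Nrg1, Nrg2 and Nrg3. Without Trained 2 all 3 passed, at 1.13, 2.02 and 1.42, in a fit where 5610 of 15840 genes passed. For Erbb4 both trained libraries stood at a like level. The low-UMI range was an unequal part of the libraries, and how far this entered these differences was not tested.

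The rest of the pathway was taken as 4 lists with 75 genes: other ErbB ligands with the EGF receptor, the proteases that release neuregulins, adaptors and kinases, and genes of receptor turnover and scaffolding. Of these, 63 were tested in at least 1 class, and 0 of the 410 tests passed, while 14 had an unadjusted p under 0.05. Both trained libraries were above both untrained ones in 73 tests and below in 68. These counts lie near the shares of all genes given above, 15% to 20.9% upward, 14.8% to 21.3% downward and 2.95% to 9.79% at an unadjusted p under 0.05. The median log2 value was 0.03 for adaptors and kinases, 0.01 for turnover and scaffolds, 0.09 for other ligands and 0.12 for proteases, and the median of all genes in each class lay between -0.01 and 0.01.

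The genes named here from the lists were among those with the smallest unadjusted p, and none passed. Among other ligands, Tmeff2, a membrane protein with an EGF-like domain, was at 1339 and 872 against 486 and 527 CPM in oligodendrocyte precursors (log2 1.07, SE 0.25, adjusted p = 0.48 by edgeR), and in astrocytes at 893 and 566 against 381 and 389 CPM (log2 0.87, SE 0.26, adjusted p = 0.35). Cspg5, a proteoglycan related to neuregulins, was lower in astrocytes of trained libraries (log2 -0.79, SE 0.31, adjusted p = 0.48). Among kinases and adaptors, Hras was at 82.0 and 80.2 against 118 and 131 CPM in dentate granule barcodes (log2 -0.63, SE 0.24, adjusted p = 0.77), and Mapk3, which encodes ERK1, was at 1.06 in CA1 (SE 0.47). The protease gene Adam19 was at 42.2 and 28.6 against 7.34 and 19.2 CPM in CA1 (log2 1.26, SE 0.56). In astrocytes Bace1 was at 38.8 and 21.8 against 56.0 and 49.0 CPM (log2 -1.001, SE 0.51). The gamma-secretase gene Psen2 was there at 38.8 and 43.5 against 22.4 and 11.5 CPM (log2 1.24, SE 0.65). Bace1 and Psen2 had an unadjusted p of 0.064 and 0.069 by edgeR. Trained 1 held 121474 UMIs in CA1 and 85523 in astrocytes, so such levels rest on few UMIs. The scaffold gene Dlg2 was at 0.44 in astrocytes (SE 0.18), and in oligodendrocytes the ubiquitin ligase gene Cbl was at 0.76 (SE 0.36). These CPM values of pathway genes are TMM-scaled.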

How the data were processed

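Nuclei of 4 hippocampal libraries (2 trained, 2 untrained) were captured on the Chromium platform (3' chemistry, version 3.1), per the labels' protocols. Per the file headers, Cell Ranger 7.0.0 wrote the deposited UMI counts of genes by barcodes. The submitters' processing notes name Cell Ranger 8, STAR and GRCm39, at odds with the headers. Gene spans came from GENCODE vM21, matched by gene ID, and no coordinate was used. The members, gene lists and markers were chosen with earlier results of these data known.

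Barcodes with at least 600 UMIs entered. A barcode took a class when it held at least 3 UMIs of at least 2 of its markers, at least 2 times the number its depth predicts (0.5 added to both), and 1.5 times as far above prediction as the next of 14 classes. Inhibitory barcodes were split by the same lead. Counts were summed per class and library, and classes with at least 30 barcodes in every library were tested in R 4.3.3 with edgeR 4.0.16 (filterByExpr, TMM, quasi-likelihood F test, Benjamini-Hochberg over all genes of a class). The standard error is the absolute log2 change divided by the square root of F. The scripts were tested on simulated data.

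All 7 members were named throughout. From each pathway list, up to 3 genes of smallest unadjusted p were named, each in a class where both trained libraries lay on one side of both untrained ones. Likeness was ranked as the report describes. Some genes that these rules name are not reported here. Alternatives were the DESeq2 1.42.0 test, edgeR on DESeq2's size factors, all genes without the count filter, replicate number as a block, leaving out each library, at least 1000 UMIs, thinning to 600 UMIs, a stricter gate (a lead of 2 times), at most 1% mitochondrial UMIs and no library block. Barcodes of 600 to 1000 UMIs, barcode sequences found in 1 library only, all pairs of classes, and assignment by whole profile were added after seeing the data. The last gave a barcode the class of highest multinomial likelihood, at least 20 log units (natural log) above the next, under the summed profiles of gated classes with at least 100000 UMIs, smoothed by 500 UMIs and without the members. Totals of 4799202 to 18423764 UMIs per library stood behind the sums over all barcodes. The spatial data of the study were not analysed here.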

Additional observations from a re-analysis of the deposited data

Results flagged for a closer look

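The change of Erbb4 with training differed between CA1 pyramidal barcodes and 3 glial classes by an interaction test of edgeR with the library as a block. It was lower than in CA1 by -1.39 on the log2 scale in oligodendrocytes (SE 0.30, adjusted p = 0.0168), by -1.63 in oligodendrocyte precursors (SE 0.31, adjusted p = 0.0223) and by -1.40 in astrocytes (SE 0.30, adjusted p = 0.0127). In CA1 both trained libraries were above both untrained ones, and in each glial class the groups overlapped. With classes set by whole profile only the astrocyte pair passed (-0.85, adjusted p = 0.0456 by edgeR). Without the library block no pair passed, and without Trained 1 the values were -0.87, -1.32 and -0.97. Those pairs were added after the values were seen, and the Erbb4 level in CA1 lay below that of low-UMI barcodes in all 4 libraries.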

How the results depend on the processing

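The Erbb4 difference in CA1 was upward under every alternative run, from 0.64 to 2.24 on the log2 scale, and passed in 6 of 13 of them. Depth limits the rest: Nrg4, Erbb2 and Erbb3 had too few UMIs in each class to pass the count filter under the marker gate with all 4 libraries. Where an alternative admitted Nrg4 or Erbb3 in a class, neither passed, and with 2 libraries in a group a single library could decide a call. Of the alternative values of member log2 changes, 430 kept their direction and their side of the threshold, 65 changed sign, 16 came to pass and 9 ceased to pass. For each change listed here the cause was not tested, other than that leaving out barcodes or libraries leaves fewer counts. Requiring at least 1000 UMIs left under 30 barcodes in a library for the dentate granule, CA1, oligodendrocyte, precursor and astrocyte classes, as did 600 to 1000 UMIs for CA3 and the stricter gate for oligodendrocyte precursors, so those tests were not run, nor the pairs of classes that need them.

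Genes past the threshold by edgeR numbered 2 each in dentate granule, CA1, CA3 and inhibitory, 1 in thalamic, 0 in oligodendrocyte, 0 in precursor, 1 in astrocyte, 0 in all and 622 in low-UMI barcodes. DESeq2 size factors gave 1 in dentate granule. DESeq2's Wald test gave 1 each in dentate granule, CA1, CA3 and inhibitory, 2 in astrocyte and 6 in all barcodes. Dropping the count filter gave 4 in dentate granule, 5 in CA1, 2 in thalamic, 5 in oligodendrocyte, 5 in precursor, 12 in astrocyte, 159 in all and 2522 in low-UMI barcodes. Thinning to 600 UMIs gave 1 each in dentate granule, CA1 and CA3 and 20 in astrocyte barcodes. Barcodes of 600 to 1000 UMIs gave 0 in dentate granule, 1 in CA1, 13 in thalamic, 0 in inhibitory, 68 in oligodendrocyte, 14 in precursor and 249 in astrocyte barcodes. The stricter gate gave 1 in CA1, 1 in CA3 and 2 in astrocyte barcodes. Leaving out shared barcode sequences gave 1 in CA3, 1 in inhibitory and 3 in astrocyte barcodes, and at least 1000 UMIs gave 1 in inhibitory and 1 in all barcodes. Whole-profile assignment gave 1 in each of CA1, CA3 and inhibitory and 0 in astrocyte barcodes. The members called went from 1 to 0 in CA1 with DESeq2, thinning, 600 to 1000 UMIs, the stricter gate and whole-profile assignment. They went from 0 to 2 in astrocytes of 600 to 1000 UMIs and from 0 to 1 in all barcodes with no count filter, and from 1 to 2 in low-UMI barcodes with DESeq2 or no filter. Without the library block the interaction called 0 genes for dentate granule against CA1 and against CA3 (1 each with it), and 0 members for CA1 against oligodendrocytes, precursors and astrocytes (1 each with it). Whole-profile assignment called 5 genes for dentate granule against CA3, and 0 members for CA1 against oligodendrocytes and against precursors.

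The labels do not state whether the replicate numbers mark a shared litter, day or batch, so the main test had no such block. The deviations of same-numbered libraries from their group means correlated by -0.188 to 0.110 over the genes of a table. This does not settle whether the libraries were paired. With the replicate number as a block the genes called numbered 26 in dentate granule, 9 in CA1, 0 in thalamic, 5 in inhibitory, 5 in oligodendrocyte, 7 in precursor, 5 in astrocyte and 1637 in low-UMI barcodes. With this replicate block 1 member was called in dentate granule and 3 in low-UMI barcodes, Erbb4 in CA1 stood at 1.64 (adjusted p = 5.59e-05 by edgeR), and Nrg2 in dentate granule barcodes turned to -0.026.

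Other log2 differences near 0 changed sign. Those of Nrg2 in dentate granule barcodes were -0.034 with no count filter, -0.071 thinned, -0.30 with the stricter gate and -0.039 at 600 to 1000 UMIs. In CA1, Nrg2 was 0.067 by DESeq2 and 0.048 with the stricter gate, and Nrg3 -0.063 with no filter. In CA3, Nrg2 was 0.12 at 1000 UMIs or more and 0.18 with the stricter gate. In thalamic barcodes Erbb4 was 0.072 with the stricter gate and 0.0065 without shared barcodes, and at 600 to 1000 UMIs Nrg3 was 0.35 and Nrg2 0.22. In inhibitory barcodes Nrg1 was 0.035 at 1000 UMIs or more and 0.0022 thinned, and Nrg2 0.28 thinned and 0.10 at 600 to 1000 UMIs. In oligodendrocytes Erbb4 was -0.039 with the stricter gate, in precursors Nrg1 was 0.079 at 600 to 1000 UMIs and Nrg3 -0.020 with no filter, and over all barcodes Nrg2 was 0.00097 at 1000 UMIs or more. Whole-profile assignment gave 0.18 for Nrg1 and 0.0018 for Nrg2 in CA3, 0.26 for Erbb4 in thalamic, 0.094 for Erbb4 and 0.13 for Nrg2 in inhibitory, 0.34 for Erbb4 and -0.0073 for Nrg3 in precursor and -0.34 for Erbb4 in astrocyte barcodes. It also turned the Erbb4 difference of training effects to -0.19 for dentate granule against CA1 and 0.064 for CA1 against CA3, and that of Nrg1 to -0.41 for CA3 against inhibitory barcodes.

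Of the levels recomputed, 130 moved by less than the SD of the libraries and 30 by more. At least 1000 UMIs gave, in CPM, 708 for Nrg1, 294 for Nrg2 and 4287 for Nrg3 in dentate granule, 4535 for Nrg3 in CA1, 57.8 for Nrg2 in CA3, 4052 for Nrg3 in inhibitory and 156 for Nrg2 in oligodendrocyte barcodes. In precursors it gave 4220 for Nrg3 and 1367 for Erbb4 (SD 789), and in astrocytes 991 for Nrg1 and 3506 for Nrg3. In Trained 1 these means rest on few barcodes: 22 dentate granule, 17 CA1, 11 oligodendrocyte, 11 precursor and 23 astrocyte. Barcodes of 600 to 1000 UMIs gave 3776 CPM for Nrg3 in CA1, 4740 in CA3, 3650 in dentate granule, 4827 in thalamic, 3413 in inhibitory, 2856 in precursor and 1907 in astrocyte barcodes. They gave 864, 830.1 and 497 CPM for Nrg1 in thalamic, precursor and astrocyte barcodes, 68.2 for Nrg2 in CA3 and 252 for Erbb4 in thalamic barcodes. The stricter gate gave 115 CPM for Erbb4 in thalamic and 1346 in precursor barcodes. Whole-profile assignment gave 839.9 CPM for Nrg1 in inhibitory, 1584 for Nrg1, 4508 for Nrg3 and 809.96 for Erbb4 in precursor and 539 for Erbb4 in astrocyte barcodes.

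With each library left out in turn, a lone library being assumed to vary like the other group, genes called ran from 0 to 5 in dentate granule, 1 to 7 in CA1, 2 to 5 in CA3, 2 to 3 in thalamic, 2 to 6 in inhibitory, 0 to 391 in oligodendrocyte, 1 to 9 in precursor, 1 to 81 in astrocyte, 1 to 189 in all and 430 to 5610 in low-UMI barcodes. Members called ran from 0 to 1 in CA1, CA3 and oligodendrocytes and from 1 to 4 in low-UMI barcodes. Log2 changes that crossed 0 ran, for Nrg1, from -0.10 to 0.44 in dentate granule, -0.37 to 0.31 in inhibitory, -0.28 to 0.55 in oligodendrocyte, -0.077 to 0.32 in astrocyte and -0.16 to 1.13 in low-UMI barcodes. For Nrg2 they ran from -0.25 to 0.14 in dentate granule, -0.36 to 0.55 in CA1, -0.29 to 0.25 in CA3, -0.51 to 0.045 in thalamic, -0.22 to 0.092 in inhibitory, -0.39 to 0.56 in precursor and -0.14 to 0.11 in all barcodes. For Nrg3 they ran from -0.013 to 0.22 in dentate granule, -0.065 to 0.076 in CA1, -0.11 to 0.065 in CA3 and -0.19 to 0.022 in thalamic barcodes. For Erbb4 they ran from -0.39 to 0.46 in thalamic, -0.53 to 0.048 in inhibitory, -0.25 to 0.46 in oligodendrocyte, -0.29 to 0.13 in precursor, -0.15 to 0.43 in astrocyte and -0.060 to 0.16 in all barcodes, where Erbb3 ran from -0.20 to 0.46. In the interaction, genes called ran from 0 to 27 for dentate granule against CA1, 1 to 24 against CA3 and 0 to 37 against inhibitory barcodes, from 0 to 2 for CA1 against CA3, 0 to 14 against inhibitory and 0 to 28 for CA3 against inhibitory barcodes. Members called ran from 0 to 1 for dentate granule against CA3 and inhibitory, CA1 against each of the other classes except dentate granule, and CA3 against inhibitory barcodes, and the Nrg1 difference of CA3 against inhibitory barcodes ran from -0.11 to 1.51.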
